A study of Vulpes lagopus with 12 samples.

Results

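The genes described here encode the proteins of the cytosolic ribosome, measured in blood RNA of Arctic foxes (Vulpes lagopus). The 12 arrays were of a type made for dog transcripts, the Affymetrix Canine Genome 2.0. A probe set, the group of probes that gives 1 value, was a member when its single gene symbol read RPL or RPS followed by a number, with the usual suffixes, or RPSA or RPLP0 to RPLP2; the RPS6K kinases were kept out. Of 43035 probe sets in the table, 116 were members, and they named 57 genes. The large subunit (RPL) had 71 probe sets for 36 genes, and the small subunit (RPS) had 45 for 21 genes.

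The arrays were 11 of foxes and 1 whose title names a canine control. Every array, the control included, carries the labels Vulpes lagopus, blood cells and blood. The labels give no strain, age, sex, treatment or time for any animal, and the contaminant load of single foxes (PCBs, which are persistent industrial pollutants, or mercury) is not in them, so no foxes were grouped by exposure. Foxes are numbered 1 to 11 in the order of the series; nothing states that they were 11 separate animals, so their spread may be partly technical. The control had no replicate, and the number of arrays limits the precision of every value.

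A ribosome is built from a large and a small subunit, each a scaffold of ribosomal RNA that holds many small basic proteins in fixed proportion. The small subunit reads the messenger RNA and the large subunit joins amino acids; the stalk proteins RPLP0, RPLP1 and RPLP2 recruit the elongation factors. Ribosomal protein transcripts are among the most abundant in a cell, and they share a pyrimidine-rich start, the TOP motif, through which the kinase mTOR governs their translation. Mature red cells carry no ribosomes, whereas reticulocytes and white cells still hold these transcripts, and inherited defects in RPS19, RPL5 and other members cause Diamond-Blackfan anaemia in people. A few members have copies with narrower expression, such as RPL3L of skeletal and heart muscle and RPL10L of testis.

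Of 77 usual cytosolic ribosomal protein genes, 51 had a probe set with that single symbol. A further 10, among them RPL3 and RPSA, stood in the annotation beside other symbols and were therefore not members, and 16, among them RPL11 and RPS6, had neither. The other 6 member genes were the copies RPL3L, RPL7L1, RPL10L, RPL22L1, RPL26L1 and RPS27L. Of the 57 symbols, 56 were found among the genes RefSeq lists for the Arctic fox; RPL17 was not matched. Ribosomal protein genes have many near-identical pseudogenes in mammals, so a probe set may read more than the gene it is named for. Where a gene has 1 value, its brightest probe set by average over the 12 arrays was used. Levels of different probe sets depend on their probes and are not compared.

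Foxes 9, 10 and 11 stood apart from the others on several quality controls. The 3' minus middle difference of GAPDH was 0.42 to 1.08 in them and 2.56 to 3.19 in foxes 1 to 8, and that of actin was 0.16 to 0.26 against 2.14 to 5.21. On the EF1a control (3.06 to 3.73 against 2.41 to 3.43) and on a second GAPDH pair (−0.96 to −0.60 against −0.77 to −0.28) the ranges overlapped. On a second actin pair these 3 foxes (4.40 to 5.11) lay inside the range of foxes 1 to 8 (3.84 to 5.78). The poly-A spikes, bacterial transcripts that serve as labelling controls and hold no animal RNA, were also higher in these foxes: in 32 of 36 spike probe sets foxes 9, 10 and 11 lay above foxes 1 to 8, with a mean log2 signal of 9.12, 9.36 and 9.67 against 6.72 to 8.25. In the 27 probe sets of the hybridisation spikes they lay above in 0 and below in 2. Signals within an array also had a larger SD in these foxes (1.93 to 2.02) than in foxes 1 to 8 (1.61 to 1.79), and the control had the largest (2.11). Counts of called and widely spread members are given with and without these 3 arrays, and the part of these quality differences in the results was not tested. Some markers of blood were high in the foxes, with the neutrophil gene S100A8 at 14.39 ± 0.79 (SD, n = 11) and the red cell precursor gene ALAS2 at 13.23 ± 1.53. These were the highest of 5 neutrophil and of 11 erythroid genes. The median fox means of the 2 lists were 10.78 and 7.59, beside 7.66 for all genes. On the control array S100A8 read 8.64 and ALAS2 6.57, while the liver gene ALB read 15.30, the gut gene SI 15.13 and the muscle gene MYH2 14.31, so that array went against its blood label.

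Among the foxes, ribosomal protein genes were highest in foxes 9, 10 and 11 and lowest in foxes 1 and 5. The mean log2 signal of the large subunit genes was 11.37 in fox 9, 11.29 in fox 10 and 11.06 in fox 11, and ran from 9.24 in fox 1 and 9.36 in fox 5 to 10.16 in fox 8 among the other foxes. That of the small subunit genes was 12.51, 12.59 and 12.29 in foxes 9, 10 and 11, and ran from 9.90 in fox 5 and 10.01 in fox 1 to 11.13 in fox 8. The ranges did not overlap for either subunit, while the median of all probe sets stayed between 7.06 and 7.17 in the foxes. The poly-A spikes separated the same 3 foxes, with fox 1 lowest (6.72) and fox 8 highest (8.25) of the others, and their part in these values was not tested. In bulk blood, fewer cells of a type and less RNA per cell cannot be told apart.

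**Figure D1:**
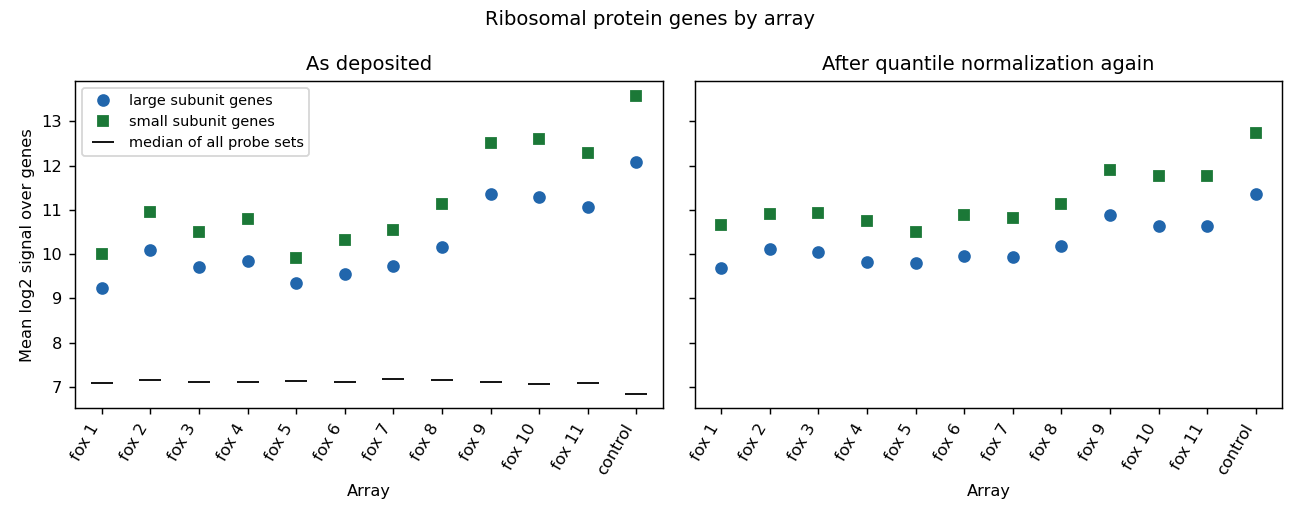
Mean log2 signal of the 36 large (circles) and 21 small (squares) subunit genes on each array, as deposited with the median of all probe sets (dashes) on the left, and after quantile normalization of the 12 arrays again on the right. Foxes 9, 10 and 11 lie above foxes 1 to 8 in both panels (large subunit 11.06 to 11.37 against 9.24 to 10.16 as deposited), and the control lies above every fox.

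The separation of the 3 foxes was smaller but present when all arrays were given the same distribution. After quantile normalization again, the large subunit mean was 10.63 to 10.89 in foxes 9, 10 and 11 and 9.69 to 10.18 in the others, and the small subunit mean 11.75 to 11.90 against 10.49 to 11.14. As deposited, the 3 foxes lay above foxes 1 to 8 in 22 of 36 large and 16 of 21 small subunit genes, against 14.2% of all 15115 genes. After quantile normalization again the gene counts were 17 and 12, against 9.08% of all genes. Over probe sets as deposited they lay above in 31 of 71 and 20 of 45, against 12.6% of all tested. They lay below in 3 and 1, against 14.6%. The genes not above in all 3 included RPL22, RPL26, RPL32, RPLP1, RPS4X and RPS10, and RPL37A was lower in these foxes (6.53 to 6.76) than in foxes 1 to 8 (6.81 to 7.24).

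The spread between foxes was wide for most members. An SD of at least 0.5 on the log2 scale was reached by 37 of 71 large and 25 of 45 small subunit probe sets, against 14.8% of all 42924 tested. Of the genes, 26 of 36 and 19 of 21 reached it, against 18.3% of all genes. Within foxes 1 to 8 it was reached by 14 and 10 genes, against 9.61% of all genes, and by 19 and 12 probe sets, against 7.0%. Members also had high levels, and spread goes with level on these arrays. Among the 1347 tested probe sets with a fox mean of at least 11, 1172 reached that SD over the 11 foxes. Among the 25 such members 24 did, so at that level a wide spread was not particular to members. Foxes 9, 10 and 11 lay above the others in 43.2% of those 1347 probe sets and in 20 of those 25 members.

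RPS9, RPS14 and RPS15 of the small subunit and RPL13A, RPL8 and RPL9 of the large subunit had the widest spreads. RPS9, which lies near the entry of the messenger RNA channel, was at 14.67, 14.74 and 14.38 in foxes 9, 10 and 11 and between 10.06 and 12.08 in the others (12.05 ± 1.76, SD, n = 11). RPS14, whose loss of 1 copy marks a human bone marrow disorder with anaemia, was at 13.10, 13.66 and 13.93 against 9.13 to 10.83 (10.99 ± 1.74). RPS15 was between 11.80 and 12.23 against 8.22 to 9.37 (9.58 ± 1.59). In each of these sets the 3 foxes lay well clear of the rest, with a gap of at least 2 log2 units. The other probe sets of RPS14 did not show this. There foxes 9, 10 and 11 overlapped foxes 1 to 8, at 9.57 to 9.61 against 8.53 to 10.01 and at 6.22 to 6.45 against 6.26 to 7.35.

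Large subunit genes with wide spreads showed the same separation. RPL13A, which also takes part in a translational block of inflammatory transcripts in myeloid cells, was at 13.67, 13.50 and 13.32 in foxes 9, 10 and 11 and between 9.03 and 10.76 in foxes 1 to 8 (10.97 ± 1.70). RPL8, a protein near the catalytic centre, was at 14.88, 14.62 and 14.57 against 10.69 to 12.80 (12.41 ± 1.60). RPL4 was at 14.16, 14.06 and 13.95, and its foxes 1 to 8 split further, from 9.84 in fox 5 and 9.98 in fox 1 to 12.61 in fox 8 (12.02 ± 1.57). SDs of RPL9, RPLP0, RPS3 and RPS19 were 1.59, 1.56, 1.51 and 1.37. In the other probe sets of RPL9 and RPS19 the SD was 0.19 to 0.21.

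Other genes were even across the foxes. RPL26 was between 9.72 and 10.55 (10.17 ± 0.26, SD, n = 11), RPS10 between 9.01 and 9.55 (9.31 ± 0.17), and RPS4X, the X-linked small subunit gene, between 6.46 and 7.16 (6.84 ± 0.21). In another RPS10 set, also with an SD of 0.17, foxes 9, 10 and 11 (6.774 to 6.918) did lie above foxes 1 to 8 (6.443 to 6.615). RPLP1 was between 8.36 and 9.32 (8.83 ± 0.28), with foxes 9, 10 and 11 at 9.32, 8.83 and 9.18. RPL7A was almost flat in foxes 1 to 8, from 9.04 to 9.26 with an SD of 0.07, and stood at 10.53, 10.26 and 10.49 in the other 3.

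Within foxes 1 to 8 the 2 ends of the order recurred from gene to gene. Fox 1 was the lowest of these in 19 of 36 large and 7 of 21 small subunit genes, against 19.3% of all genes, and fox 5 in 8 and 13, against 12.1%. Fox 8 was the highest in 12 and 10, against 12.2%, and fox 2 in 13 and 9, against 26.6%. The genes share arrays, so these counts are not independent. Of the 36 poly-A spike probe sets, fox 1 was the lowest of these foxes in 22 and fox 5 in 1, and fox 8 was the highest in 23 and fox 2 in 5. Of the 27 hybridisation spike probe sets, fox 2 was the highest of these foxes in 27. Its mean log2 signal there was 13.76, against 11.43 to 12.02 in the others. The part of the spike differences in the order of the foxes was not tested. RPL5, which with RPL11 binds MDM2 when ribosome assembly fails, was lowest in fox 1 (10.44) and fox 5 (10.78) and highest in fox 4 (12.17) and fox 8 (12.14), with fox 2 at 10.93 and foxes 9, 10 and 11 at 13.55, 13.35 and 13.50.

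Both subunits moved together, with a larger range for the small one. The large minus small subunit mean was −0.55 in fox 5 and −0.96 in fox 8, the ends of foxes 1 to 8, and −1.15, −1.30 and −1.23 in foxes 9, 10 and 11. It was −1.49 on the control. These are means over different probe sets, so the sign of the value cannot be read, and its change between arrays depended on the summary. Over all member probe sets the large and small means were 8.29 and 8.44 in fox 1 and 9.72 and 9.79 in fox 9. There fox 9 lay within foxes 1 to 8, while foxes 10 and 11 were still the lowest foxes. After quantile normalization again the gene means were 9.69 and 10.67 in fox 1 and 10.89 and 11.90 in fox 9, so these foxes lay close.

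Mean levels of some cell marker lists also differed between these foxes. The mean log2 level of 7 monocyte genes was 11.42 to 11.72 in foxes 9, 10 and 11 and 9.93 to 10.71 in foxes 1 to 8, that of 14 T cell genes 8.24 to 8.56 against 7.89 to 8.07, and that of 8 platelet genes 8.64 to 8.93 against 7.60 to 8.52. The 5 neutrophil genes (11.31 to 12.76 against 10.08 to 11.89), the 11 erythroid genes (8.50 to 8.70 against 8.08 to 9.13) and the 8 B cell genes (7.09 to 7.34 against 7.30 to 7.45) overlapped. Gene by gene, the 3 foxes lay above in 5 of 7 monocyte, 4 of 14 T cell, 3 of 8 platelet and 1 of 5 neutrophil genes, against 14.2% of all genes. The part of blood cell composition in the ribosomal values was not tested.

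On the canine control array, ribosomal protein genes stood above the foxes in most cases. The comparison used limma on all tested probe sets, with Benjamini-Hochberg adjusted p-values and a threshold of 0.05. A gene called this way is said to have risen or fallen on the control. The control lay above all 11 foxes in 25 of 36 large and 17 of 21 small subunit genes, against 21.7% of all genes. Over probe sets it lay above in 41 of 71 and 28 of 45, against 21.9% of all tested, and below in 9 and 4, against 55.1%. The large subunit mean was 12.08 on the control against 10.13 ± 0.77 in the foxes (SD, n = 11), and the small subunit mean 13.57 against 11.05 ± 0.98. The poly-A spikes had a mean of 8.84 on the control, above foxes 1 to 8 and below foxes 9, 10 and 11, and the control exceeded all foxes in 0 of their 36 probe sets.

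Of the large subunit genes 14 rose and 1 fell, and of the small subunit genes 10 rose and 0 fell, against 18.5% higher and 44.6% lower of all genes. The median control minus fox difference was 2.16 for large and 2.39 for small subunit genes, beside −0.53 for all genes. Over probe sets, 28 of 71 large subunit sets rose and 7 fell, and 19 of 45 small subunit sets rose and 4 fell, against 18.9% and 42.1% of all tested. Their medians were 1.58 and 1.69, beside −0.46 for all tested probe sets. No small subunit gene had a difference below 0 (lowest 0.55), so 0 were lower at an unadjusted p under 0.05 as well. With 1 control array the fit takes its spread from the foxes, and an exact permutation test of 1 array against 11 could not go below 0.0833.

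The 3 foxes that stood apart set how many members were called. Without foxes 9, 10 and 11, 28 large and 21 of 21 small subunit genes rose by limma, against 22.9% of all genes, and 3 and 0 fell, against 51.6%. The medians were then 2.58 and 3.04. After quantile normalization again 14 and 10 rose, against 16.4% of all genes, and 3 and 0 fell, against 33.2%, with medians of 1.22 and 1.46 beside −0.41 for all genes.

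**Figure D2:**
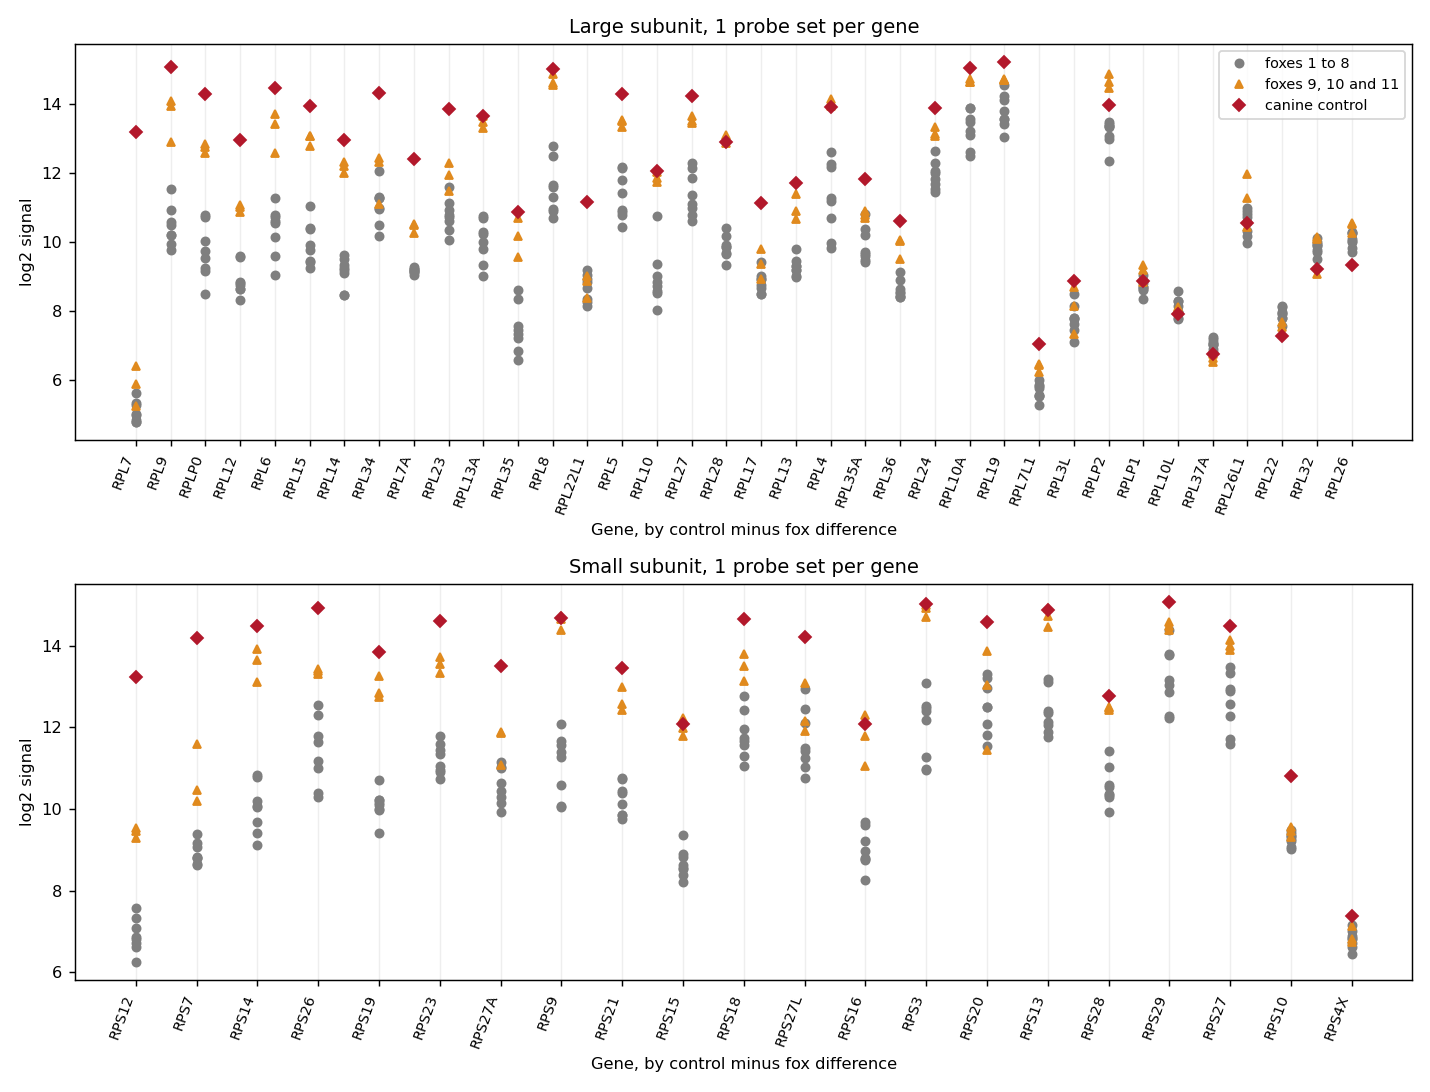
Log2 signal of each large (top) and small (bottom) subunit gene on every array, genes ordered by the control minus fox difference; circles are foxes 1 to 8, triangles foxes 9, 10 and 11, and diamonds the control. Triangles lie above the circles in 22 large and 16 small subunit genes, and the diamond lies above all foxes in 25 and 17.

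RPL7, a protein of the large subunit surface, had the largest difference of all members. It was between 4.78 and 5.62 in foxes 1 to 8, at 5.87, 6.41 and 5.25 in foxes 9, 10 and 11, and at 13.20 on the control. The rise was 7.91 (SE 0.49, adjusted p 3.96e-08 by limma). The control lay far above all foxes, and only fox 9 and fox 10 exceeded foxes 1 to 8. Every fox value lay below 7.12, the median over tested probe sets of the mean level, and the lowest value in the table was 3.23. RPL7 was read by 1 probe set made for dog transcripts, and no detection calls came with the values. Whether its transcript was scarce in the foxes or poorly read by these probes cannot be told.

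RPS12 and RPS7 came next, and both also separated the foxes. RPS12 was between 6.25 and 7.58 in foxes 1 to 8, at 9.53, 9.28 and 9.46 in foxes 9, 10 and 11 and at 13.23 on the control, a rise of 5.63 (SE 1.16, adjusted p 0.0016). RPS7, a regulator of MDM2 like RPL5, was between 8.64 and 9.38, at 10.45, 11.60 and 10.19, and at 14.18, a rise of 4.77 (SE 0.89, adjusted p 0.000877). For both genes the control lay above the 3 foxes, and these above the other 8.

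Of the stalk genes, RPLP0 rose on the control and the others were not called. RPLP0, the stalk base, was between 8.50 and 10.80 in foxes 1 to 8, at 12.77, 12.58 and 12.86 in foxes 9, 10 and 11 and at 14.29 on the control, a rise of 3.75 (SE 1.47, adjusted p 0.042). RPLP1, which pairs with RPLP2 at the tip, was at 8.87 on the control, inside the foxes, with a difference of 0.05 (SE 0.27, adjusted p 0.888). RPLP2 was at 13.98 on the control, inside the foxes (12.36 to 14.87), a difference of 0.39 (SE 0.73, adjusted p 0.653). RPLP2 was higher in foxes 9, 10 and 11 (14.48 to 14.87) than in foxes 1 to 8 (12.36 to 13.49), and higher there than on the control.

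Of the other large subunit genes with the largest rises, RPL9, RPL12, RPL7A and RPL13 had foxes 9, 10 and 11 between the other foxes and the control, while in RPL34, RPL23, RPL22L1 and RPL17 these foxes overlapped the others. RPL9 was between 9.78 and 11.55 in foxes 1 to 8, at 14.10, 13.95 and 12.89 in foxes 9, 10 and 11 and at 15.09 on the control, a rise of 3.76 (SE 1.50, adjusted p 0.0453). Its other 2 probe sets differed by −0.26 and 0.08, and as the mean of its sets RPL9 was not called (1.19, adjusted p 0.0705). RPL12, which sits beside the stalk, went from 8.32 to 9.58, through 11.07, 10.89 and 11.02, to 12.98, a rise of 3.51 (SE 0.99, adjusted p 0.00952). In a second, dimmer RPL12 set foxes 9, 10 and 11 lay below foxes 1 to 8 (3.86 to 3.99 against 4.02 to 4.42). They did so too in a second RPL23 set (6.18 to 6.36 against 6.58 to 7.15). These 2 sets differed by 0.38 and −0.31 and were not called. As means of their sets RPL12 (1.94) and RPL23 (1.24) were called higher. RPL7A rose by 2.90 (SE 0.56) to 12.41. RPL34 rose from 11.31 ± 0.71 in the foxes (SD, n = 11) to 14.32. RPL23 rose by 2.79, RPL22L1 by 2.46, RPL17 by 2.15 and RPL13 by 1.97, and adjusted p-values of these 4 ran from 0.000117 to 0.0489.

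Of the small subunit, RPS26 at the messenger RNA exit rose by 2.99 (SE 1.09), from 11.93 ± 1.15 in the foxes (SD, n = 11) to 14.92. RPS23, which contacts the decoding centre, rose by 2.75 (SE 1.06), from 11.86 ± 1.13 to 14.61. RPS27A, made as a fusion with ubiquitin, rose by 2.65 (SE 0.62), from 10.86 ± 0.65 to 13.51. RPS18 rose by 2.39 in this set, while another RPS18 set fell (−0.90, adjusted p 0.00774) and the mean of its sets was not called (1.28, adjusted p 0.127). RPS27L rose by 2.34 and RPS20 by 2.02. For these 6 genes the adjusted p lay between 0.00327 and 0.04. After quantile normalization again RPS20 was not called (1.03, adjusted p 0.202), and neither was RPL13 of the large subunit (0.98, adjusted p 0.106).

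Several genes with differences of similar size were not called, with fox SDs of 1.15 to 1.76. RPS14 was at 14.48 on the control, above every fox, with a difference of 3.50 (SE 1.64, adjusted p 0.081), and RPS19, at 13.86, with one of 2.98 (SE 1.29, adjusted p 0.0621). RPL5 was at 14.31 (2.41, SE 1.08, adjusted p 0.0701) and RPL6 at 14.48 (3.34, SE 1.42, adjusted p 0.0569). Without foxes 9, 10 and 11 each was called by limma, with an adjusted p of 7e-05, 6.2e-06, 0.00139 and 0.000339. RPS9 (14.69), RPS15 (12.08), RPL4 (13.93) and the brightest set of RPL13A (13.67) lay inside the foxes on the control, at the level of foxes 9, 10 and 11. The other RPL13A set went another way. There the control, at 12.36, lay above foxes 9, 10 and 11 (10.03 to 10.50) and foxes 1 to 8 (8.11 to 9.41). That set was called higher (difference 3.199), as was RPL13A as the mean of its sets (2.949).

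RPL26, a protein near the exit of the large subunit's peptide tunnel, was the 1 gene that fell. The control read 9.35 and the foxes 9.72 to 10.55, a difference of −0.83 (SE 0.26, adjusted p 0.0176). With each array centred the difference was −0.56 and was not called (adjusted p 0.107), as it was not with the trend and robust settings of limma (adjusted p 0.0546). RPL22 lay below all foxes at 7.28 (7.38 to 8.16), a difference of −0.53 (SE 0.25, adjusted p 0.0767).

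Calls near the threshold were lost when single foxes were left out. RPL9 and RPL13 were not called without any 1 of foxes 1 to 8, RPLP0 without any 1 of foxes 2 to 8, RPS23 without fox 2, 3, 4, 6, 7 or 8, and RPS4X without fox 2, 3, 4, 5, 6, 9 or 10. The adjusted p-values by limma then lay between 0.0515 and 0.0639, while the difference of RPL9 ran from 3.60 to 4.04 and that of RPLP0 from 3.54 to 3.98 over all 11 such fits. Some members read near the top of the table (15.64) on the control, such as RPL19 at 15.23 and RPS29 at 15.08. RPL19 differed by 1.18 (SE 0.57, adjusted p 0.0892) and RPS29 by 1.53 (SE 0.83, adjusted p 0.125).

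**Figure D3:**
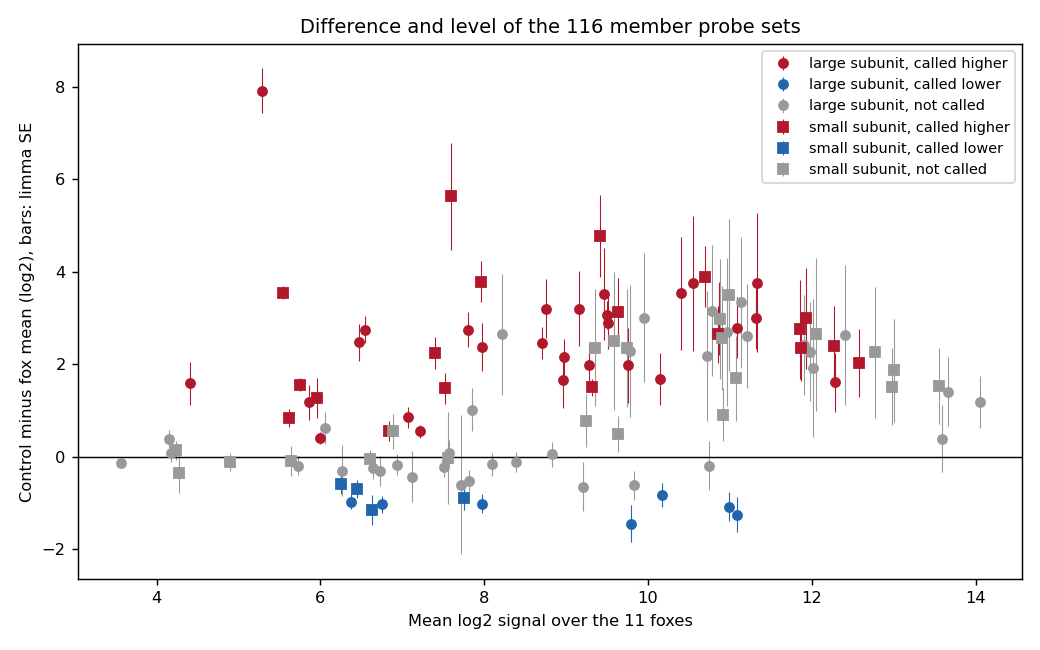
Control minus fox difference of the 116 member probe sets against their mean log2 signal over the 11 foxes, with limma standard errors as bars; circles are large and squares small subunit, and colours mark calls at an adjusted p under 0.05. Of 25 members with a fox mean of at least 11, 9 were called higher and 1 lower, and of 31 members under 7, 11 were called higher and 5 lower.

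The size of the difference went with level. By fox mean alone, the median difference was 2.27 in the 25 members of at least 11 and 0.08 in the 31 members under 7. The split that follows uses the mean over all arrays. That mean includes the control, so the split is not independent of the difference. Members whose mean over all arrays lay above that of the median probe set had a median difference of 1.97 (53 large subunit sets) and 2.34 (31 small subunit sets). Those at or below it had medians of −0.03 (18) and 0.05 (14). The members above the median rose in 22 and 14 cases, against 17.6% of all tested probe sets above it, and fell in 5 and 1, against 43.6%. Foxes 9, 10 and 11 lay above the others in 29 and 18 of them, against 19.6%. Among the 25 members with a fox mean of at least 11, 9 rose, against 9.21% of the 1347 tested probe sets at that level.

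Probe sets of the same gene often disagreed. Of 30 genes with several probe sets, 15 had differences at least 2 log2 units apart, 4 had sets called in both directions, 4 had every set called higher, and 5 had none called. RPS12 was the widest, since its second probe set read 4.78 on the control and 4.60 to 5.25 in the foxes, a difference of −0.12 against 5.63. Neither the control nor foxes 9, 10 and 11 (4.86 to 5.05) stood apart in that set.

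RPL6, a large subunit gene with 11 probe sets, held 2 patterns. In 8 sets the control lay above all foxes, by 0.85 to 3.53, and 7 of these were called. In the other 3 it lay below all foxes, by −1.04 to −1.25, and all 3 were called lower. The lower sets were not dim: 2 of them read 10.42 to 11.93 in the foxes. Foxes 9, 10 and 11 stood at 13.73, 13.42 and 12.57 against 9.05 to 11.29 in the set with the highest mean, and at 11.18, 10.80 and 11.10 against 10.44 to 11.93 in a set called lower. The fox SD was 0.22 to 1.30 in the 7 sets called higher and 0.16 to 0.40 in the 3 called lower.

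RPL34, RPL35 and RPS18 also had sets called in both directions. In RPL35 the set called higher differed by 0.54 and the one called lower by −1.02, and the set with the highest mean was not called (2.64). RPL34 had 1 set higher (11.31 to 14.32) and 2 lower, by −1.45 (SE 0.40, adjusted p 0.00825) and −0.97. As the mean of its 5 sets RPL34 differed by 0.11 and was not called (adjusted p 0.687). RPS14 and RPS20 were called in 1 direction. RPS14 had sets at 3.50, 0.50 and −1.16, of which the last was called. Of 8 RPS20 sets, 4 were called higher, by 2.02 to 3.79, and 4 were not called. One RPS20 set separated fox 10, at 10.19, from fox 9 (8.66), fox 11 (7.88), foxes 1 to 8 (6.44 to 7.42) and the control (7.52).

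**Figure D4:**
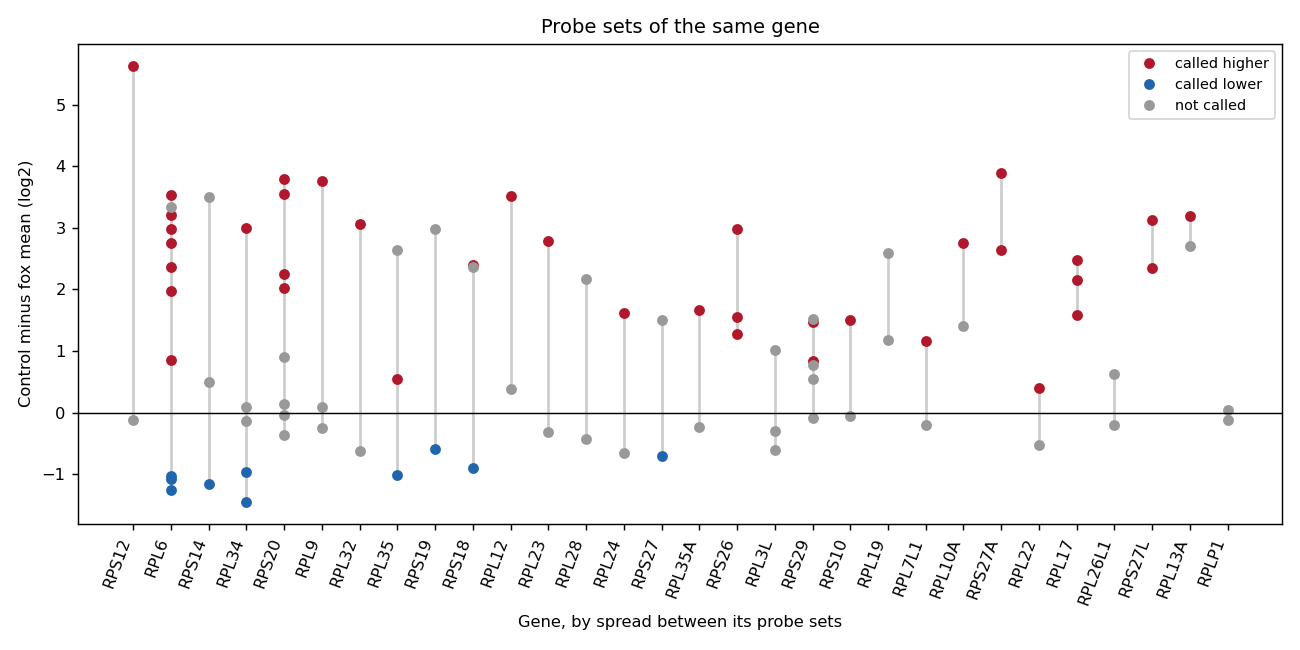
Control minus fox difference (log2) of every probe set of the 30 genes that have several, genes ordered by the distance between their lowest and highest probe set; colours mark calls by limma. RPS12, RPL6, RPS14, RPL34 and RPS20 span 4.15 to 5.75 log2 units, and RPLP1 spans 0.17.

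The kind of probe set went with the difference. Affymetrix marks sets whose probes match several transcripts with _s_at or _x_at, and unique ones with _at alone. Of 44 members ending in _s_at 18 rose and 1 fell (median 2.46), of 27 ending in _x_at 15 rose and 2 fell (median 1.51), and of 39 ending in _at 11 rose and 8 fell (median 0.08). Over all tested probe sets ending in _s_at, 19.9% were called higher and 39.2% lower, in _x_at 15.1% and 37.4%, and in _at 18.1% and 44.2%, with medians of −0.40, −0.40 and −0.49. Kind and level were linked among members, with median fox means of 10.75, 8.83 and 6.94. The separation of the foxes also went with kind. Foxes 9, 10 and 11 lay above foxes 1 to 8 in 32 of 44 _s_at, 10 of 27 _x_at and 7 of 39 _at members, and below in 0, 1 and 3. Over all tested probe sets they lay above in 2368 of 13474, 111 of 973 and 2862 of 27954. Without the _s_at and _x_at sets the large subunit median was −0.13, with 8 sets called higher and 5 lower, and the small subunit median 0.55, with 6 and 3.

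The copies of ribosomal protein genes did not move as one group. RPL3L, which replaces RPL3 in skeletal and heart muscle, was measured by 3 probe sets, and none was called. The set with the highest mean was at 8.87 on the control, above all foxes (7.10 to 8.69), a difference of 1.02 (SE 0.47, adjusted p 0.0755); centring each array made it a call (1.28, adjusted p 0.0422), as did leaving out fox 9 (adjusted p 0.0334). The others differed by −0.61 and −0.31. On the same array the muscle list was higher in 11 of 16 genes and lower in 3.

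The RPL3L sets ordered the foxes in their own way. One set was at 10.76 in fox 9, 9.74 in fox 5, 9.21 in fox 1, 8.16 in fox 2 and 8.13 in fox 8, and between 6.06 and 6.92 in the other 6 foxes, with 7.11 on the control (7.71 ± 1.61, SD, n = 11). A second set put the same 3 foxes on top, at 7.60, 6.87 and 6.66, with 5.53 to 6.19 in the others. In the third, foxes 9 and 5 were also highest, at 8.69 and 8.50, with fox 1 at 7.80. Fox 5 and fox 1 were the lowest foxes in the subunit means, and fox 9 was among the highest, so RPL3L did not follow the order of the other large subunit genes.

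RPS27L, a copy of RPS27, rose in both of its sets, by 2.34 (SE 0.72, adjusted p 0.0142) and 3.13 (SE 0.73, adjusted p 0.00344). RPS27 itself was at 14.50 on the control, a difference of 1.51 (SE 0.83, adjusted p 0.13), and its second set fell by 0.70 on the log2 scale (adjusted p 0.00995). RPL22L1 rose by 2.46 (SE 0.35), from 8.70 ± 0.36 in the foxes (SD, n = 11) to 11.16, while RPL22 differed by −0.53 in 1 set and rose by 0.41 (SE 0.13, adjusted p 0.0152) in the other. Whether the members of a pair differ in response was not tested, since each pair is read by different probes.

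RPL7L1, a relative of RPL7, rose by 1.17 (SE 0.37, adjusted p 0.0177) in 1 set and differed by −0.20 in the other. RPL10L, the testis copy of RPL10, was at 7.92 on the control, inside the foxes (7.75 to 8.57), a difference of −0.17 (SE 0.24, adjusted p 0.549), which turned to 0.10 with centred arrays. RPL10 was at 12.06, above all foxes (8.04 to 12.03), a difference of 2.28 (SE 1.43, adjusted p 0.178). RPL26L1 was at 10.54, inside the foxes (9.96 to 11.98), with fox 10 highest in both of its sets. Its difference was −0.20 as deposited, and it was called lower after quantile normalization again (−1.15, adjusted p 0.025). RPS4X rose by 0.55 (SE 0.22, adjusted p 0.0451).

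**Figure D5:**
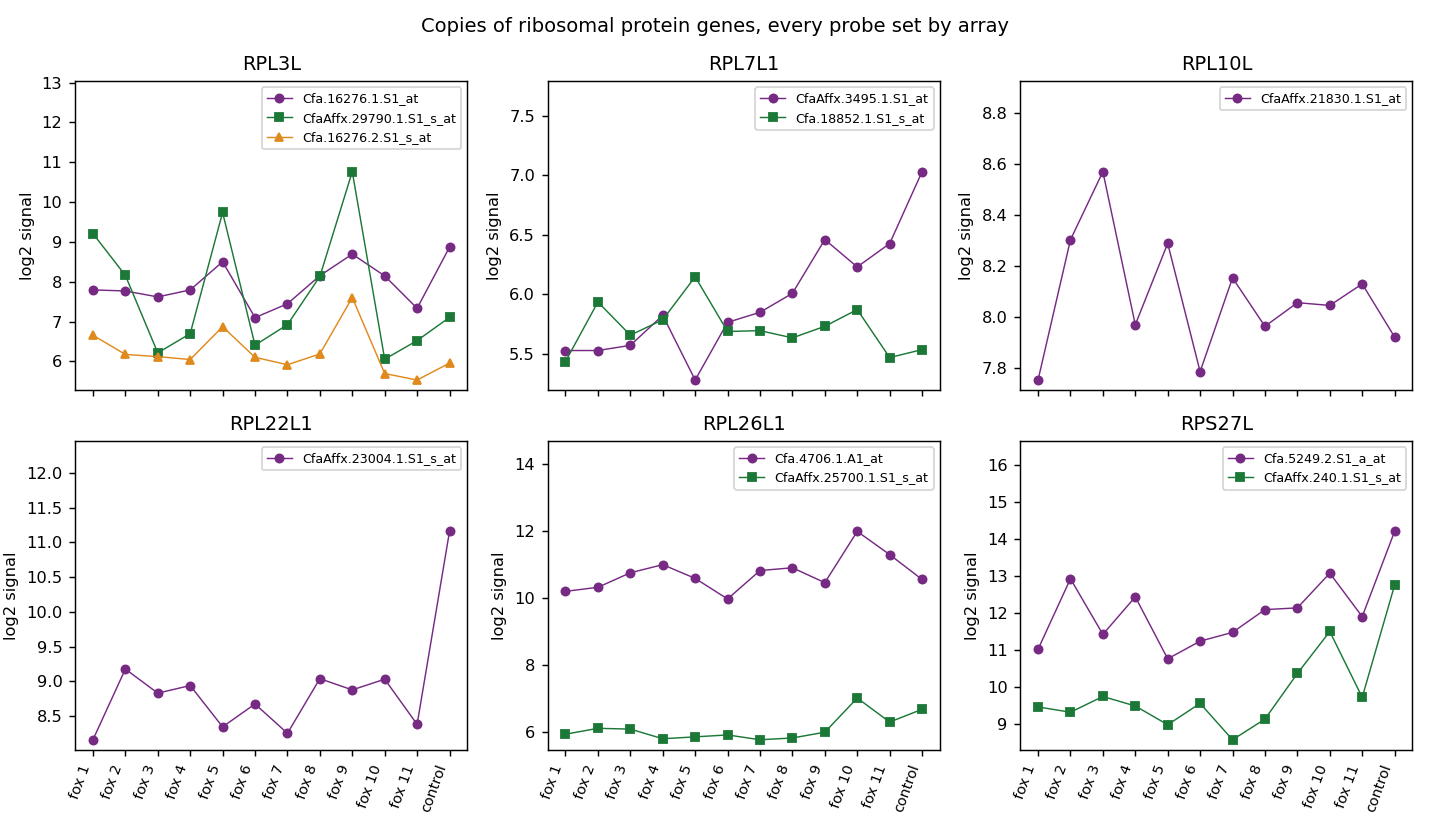
Log2 signal of every probe set of the 6 copies RPL3L, RPL7L1, RPL10L, RPL22L1, RPL26L1 and RPS27L on the 11 foxes and the control; each line joins the values of 1 probe set, and the vertical axes differ. RPL3L peaks in fox 9 and fox 5 (10.76 and 9.74 in 1 set), and RPL22L1 and RPS27L are highest on the control.

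Genes listed as TOP transcripts that are no ribosomal proteins, mostly elongation and initiation factors, also had their highest mean levels in foxes 9, 10 and 11 and on the control. Gene by gene, the control lay above all foxes in 9, inside them in 8 and below them in 2, against 21.7% above of all genes. Of 19 measured, 5 rose and 2 fell on the control, with a median of 1.25, against 18.5% higher and 44.6% lower of all genes. Foxes 9, 10 and 11 lay above the others in 12, against 14.2% of all genes. EEF1A1, the elongation factor that brings charged transfer RNA, rose by 4.20 (SE 0.77) to 14.76, EEF1E1 by 3.84 and the initiation factor subunit EIF3L by 3.76. EEF1D, an exchange factor, differed by 2.81 (SE 1.24, adjusted p 0.0657). The mean of these genes was 12.61 on the control and 12.04 to 12.16 in foxes 9, 10 and 11, against 10.12 to 11.22 in the other foxes.

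Proteins of the mitochondrial ribosome, which are encoded in the nucleus but have no place in the cytosolic ribosome, also rose in most genes. Of 73 genes 45 rose and 7 fell on the control, with a median of 1.56, against 18.5% higher and 44.6% lower of all genes, which is the background for the other translation lists as well. A fox SD of at least 0.5 was reached by 17 of 73, against 18.3% of all genes. Their mean was 8.52 to 8.57 in foxes 9, 10 and 11, against 7.96 to 8.27 in the other foxes and 9.48 on the control. MRPL58 rose by 3.55, MRPL42 by 3.41, MRPL19 by 3.28 and MRPL1 by 3.15.

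Factors that assemble ribosomes rose in 26 of 61 genes and fell in 8, with a median of 0.53. RSL24D1 and SBDS, which act late on the large subunit, rose by 4.85 and 3.12, and PNO1 and UTP20, of small subunit processing, by 3.08 and 3.07. Subunits and factors of RNA polymerases I and III, which make ribosomal RNA, rose in 7 and fell in 8 of 23, with a median of −0.12, and TAF1D was the largest at 3.51. Genes of the mTOR pathway and TOP control rose in 2 and fell in 6 of 26, with a median of −0.14; the cap-binding protein EIF4E rose by 2.06, and its inhibitor EIF4EBP1 differed by −2.27 (SE 1.17, adjusted p 0.106). Genes of ribosome recycling and quality control rose in 8 and fell in 3 of 17, with a median of 0.82, among them DENR at 2.62 and ASCC3 at 2.09.

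Markers of other tissues moved with the control array as a whole. Of 12 liver genes 7 rose and 1 fell (mean level 12.29 on the control, 8.04 to 8.20 in the foxes), and of 10 gut genes 8 rose and 1 fell (11.53 against 6.37 to 6.70). Of 8 testis genes 3 rose and 0 fell, with TNP2 higher by 5.15. Of 5 neutrophil genes 4 fell, of 8 platelet genes 5 and of 7 monocyte genes 4. Of 11 erythroid genes 7 fell (1 rose), of 14 T cell genes 9 (1 rose) and of 8 B cell genes 7 (1 rose). The shares over all genes were 18.5% higher and 44.6% lower, so falls in a few genes of a short list say little by themselves. The part of tissue makeup in the ribosomal difference was not tested, and with 1 control array neither tissue nor species nor array can be told apart.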

How the data were processed

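Fox blood was taken into PAXgene tubes, which stabilise RNA, per the labels' protocols. The deposited values were log2 signals. The authors computed them by RMA, and the submitters' processing notes name Affymetrix Expression Console for it. Software versions, and any joint normalization of the 12 arrays, are not stated there. No detection calls came with the values. From 43035 probe sets, 111 Affymetrix control sets were set aside and 42924 tested. Gene symbols came from the platform annotation, where 29254 tested probe sets had 1 symbol, 439 several and 13231 none. The control was compared with the foxes by limma 3.58.1 (lmFit, eBayes) in R 4.3.3, adjusted over all tested probe sets, as tested on simulated data. There, differences of 1, 2 and 3 log2 units on the control were recovered in 47.8%, 82.1% and 87.9% of planted probe sets among 42924. The members and lists were chosen with earlier results of these data known. Named genes were those called lower, the 10 large and 8 small subunit genes with the largest called rise, the 5 of each with the largest fox SD, the stalk genes, RPL5, RPS14 and RPS19, the copies with their general genes, the 5 genes whose probe sets differed most, and up to 4 per other list; a few more named for range were chosen after their values were seen. Alternatives were a level filter, quantile normalization again, centring, other limma settings, fold and range rules, gene means, leaving out _x_at and _s_at probe sets, another spread measure and leaving out foxes. No sequences were printed, since the tables used held none.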

Additional observations from a re-analysis of the deposited data

How the results depend on the processing

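No paired analysis was possible because there is 1 control array, which shares fewer than 2 replicate numbers with the foxes. The count over all tested probe sets was 26183, and it was 12802 among probe sets above the median level (fewer tested) and 11816 with an absolute difference of at least 1; without single foxes it ran from 25001 to 27620. Without foxes 9, 10 and 11 the probe sets called higher were 44 (large) and 31 (small). Without _x_at and _s_at sets they were 8 and 6, and the medians were −0.13, a reversal, and 0.55. With 1 value per gene, by mean or by the highest probe set, 14 and 10 were called higher and 1 and 0 lower, in part because fewer values were counted, and by the highest set the medians were 2.16 and 2.39. The small subunit sets called lower numbered 1 above the median level, 2 after quantile normalization again, 2 with centred arrays and 1 with a difference of at least 1. The small subunit median was 2.34 above the median level, and the large subunit median 0.85 after quantile normalization again; the cause was not tested. Without single foxes, large subunit sets called higher ran from 24 to 36 and lower from 7 to 8, with medians of 1.53 to 1.67; small subunit sets ran from 17 to 22 and stayed at 4, with medians of 1.58 to 1.83. Fox SDs were at least 1 in 17 large and 13 small subunit sets, and at least 0.5 in 19 and 12 within foxes 1 to 8, in 6 and 4 of the sets left without _x_at and _s_at, and in 19 and 16 gene means; without single foxes the counts ran from 34 to 39 and from 24 to 25. The gap of the subunit means (1.95 and 2.52) was 1.20 and 1.64 after quantile normalization again and 2.22 and 2.79 with centred arrays, both chosen after seeing the data. Directions turned for genes that were not called: RPL10L to 0.10 and RPL26L1 to 0.0674 with centred arrays, RPLP1 to −0.33 and RPLP2 to −0.73 after quantile normalization again, and, as gene means, RPL26L1 to 0.21 and RPLP1 to −0.0348. Over the other settings of the 39 named genes, 577 kept direction and call, 45 lost a call and 32 gained one. With 1 control array its own spread is unknown, and no detection floor could be set.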

Other observations

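Besides the members, 75 tested probe sets named a ribosomal protein together with other symbols, and their targets cannot be told apart. Of these, 25 were called higher and 9 lower on the control by limma, with a median difference of 1.40, and foxes 9, 10 and 11 lay above foxes 1 to 8 in 29 of 75 and below in 0.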
